A study of Homo sapiens with 42 samples.

Results

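The heat shock genes followed here were HSF1, the transcription factor that drives the heat shock response, and 9 chaperone and cochaperone genes: HSPA1A, HSPA1B, HSPA8, HSPH1, DNAJB1, BAG3, HSP90AA1, HSPD1 and HSPE1. They were picked by symbol, and all 10 were found by Ensembl identifier among the 58243 genes of the count tables. RNA came from K562, an established human line derived from chronic myeloid leukaemia and driven by the fusion kinase BCR-ABL1. Cells were left untreated (CTRL), or received 1 µM imatinib (IM), an inhibitor of that kinase, 5 µM JTE-607 (JTE), a compound directed at the CPSF73 nuclease that cuts pre-mRNA 3′ ends, or 110 mM KCl, a hyperosmotic shock. Poly(A) mRNA of whole cells was sequenced for CTRL, IM 1h, IM 6h, IM 18h, JTE 1h, JTE 6h, JTE 18h, KCl 1h and KCl 3h, and rRNA-depleted nuclear RNA for CTRL, IM 1h, IM 18h, JTE 1h and KCl 1h, with 3 biological replicates in each of these 14 groups. The cells are 1 line, and no group received the solvent alone. In each fraction 1 untreated group, for which no time is given, served as CTRL for all treatment times.

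In unstressed cells, HSF1 is kept inactive by the chaperones that it controls. When proteins misfold, the chaperones are drawn away, and HSF1 forms trimers that bind heat shock elements, which are repeats of the unit GAA in alternating orientation. HSP70 proteins bind exposed stretches of unfolded clients, J-domain proteins such as DNAJB1 hand clients to them, nucleotide exchange factors such as HSPH1 and BAG3 release the clients, and HSP90 completes the folding of kinases, BCR-ABL1 among them.

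The element letters were looked up in the RefSeq promoter windows (hg38), using the 250 bases upstream of each listed start, because members of this group are known to share this sequence and several of them moved together below. A window was counted when it held GAANNTTC or TTCNNGAA, both of which read the same on either strand. These letters occurred in 11.6% of all 35116 windows, and the longer GAANNTTCNNGAA or its reverse TTCNNGAANNTTC, which contain the shorter forms, in 0.441%. Windows were listed for 9 of the 10 genes (13 windows), all but HSF1. An element was found for 6 genes, 1 window each, and 3 of these windows held the longer form. For each of the 6 windows 1 stretch that carries the letters is shown on the strand of the gene, with the element letters in capitals. The HSPA8 and HSP90AA1 windows held further elements of the shorter form outside the stretch shown:
HSPA1A: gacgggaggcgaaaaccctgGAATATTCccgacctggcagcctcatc
HSPA1B: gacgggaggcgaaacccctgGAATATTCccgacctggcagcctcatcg
DNAJB1: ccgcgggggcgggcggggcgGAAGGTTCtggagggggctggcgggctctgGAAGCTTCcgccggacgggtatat
HSPA8: GAAAGTTCCAGAA
HSP90AA1: TTCCGGAAGGTTC
HSPD1: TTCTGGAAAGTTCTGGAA
The HSPA1A stretch is chr6:31815417-31815463 on the plus strand and ends 80 bases upstream of the RefSeq start. The HSPA1B stretch is chr6:31827613-31827660 (plus strand) and begins 125 bases upstream. The DNAJB1 stretch, chr19:14518421-14518494 (minus strand), holds 2 separate elements between 97 and 24 bases upstream. The remaining 3 are chr11:123062354-123062366 for HSPA8, chr14:102087120-102087132 for HSP90AA1 and chr2:197500068-197500085 for HSPD1, all on the minus strand and inside annotated exons. No listed window of HSPH1, HSPE1 or BAG3 held these letters. The HSPD1 stretch lies just outside the HSPE1 window (chr2:197500129-197500378) but inside the span of HSPE1 as counted, from 197499994 to 197503457. The result for HSPE1 therefore depends on the cut at 250 bases. A match describes the letters of a window and says nothing of whether HSF1 was bound there.

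The values are read pairs per gene, given as CPM, counts scaled to a fixed library size after TMM normalization. Because CPM are shares of a library, less of a transcript per cell and fewer cells that make it cannot be told apart. The mRNA libraries held between 16439848 and 22505595 counts, except for KCl 1h replicate 2 (62953314) and replicate 3 (42474454), and the nuclear libraries between 16175394 and 25103205. Each of the 10 genes passed the filter on low counts in both fractions, and the lowest count of any of them in a library was 318. All 10 of the K562 markers looked up were above 1 CPM in every CTRL library, while of 8 markers of other cell types 4 were under 1 CPM in every CTRL library and the highest, EPCAM, reached 95.1 CPM. Uniquely mapped pairs alone were counted. This bears on HSPA1A and HSPA1B, since 69.6% of the 150-base stretches of the HSPA1A transcript occur letter for letter in that of HSPA1B, so that both counts are uncertain and too low. Pairs over exons of more than 1 gene were not counted either, and 23.93% of the exonic bases of HSPE1 are shared with HSPD1 or the readthrough gene HSPE1-MOB4, against 0 to 6.62% for the other 9 genes.

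Per length of exon, HSPA8 and HSP90AA1 were the most abundant of the 10 transcripts in untreated cells, with 594 and 523 CPM per kb in mRNA, followed by HSPD1 with 270 CPM per kb. BAG3 (12.2 CPM per kb) and HSF1 (11.2 CPM per kb) were the least abundant. Together the 10 genes took 0.745% ± 0.103 (SD, n = 3) of the normalized mRNA counts in CTRL, 0.412% ± 0.0650 in IM 18h and 1.02% ± 0.281 in KCl 3h. In nuclear RNA they took 0.541% ± 0.0256 in CTRL and 0.274% ± 0.0312 in IM 18h. The mean share was thus lowest after 18 h of imatinib in both fractions. In mRNA it was highest, with the widest spread, after 3 h of KCl, a group without nuclear libraries. There replicate 3 (0.708%) lay below CTRL replicate 1 (0.863%). HSPA8 and HSP90AA1, with means of 2880 and 2745 CPM in mRNA CTRL, made up most of the share there.

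**Figure D1:**
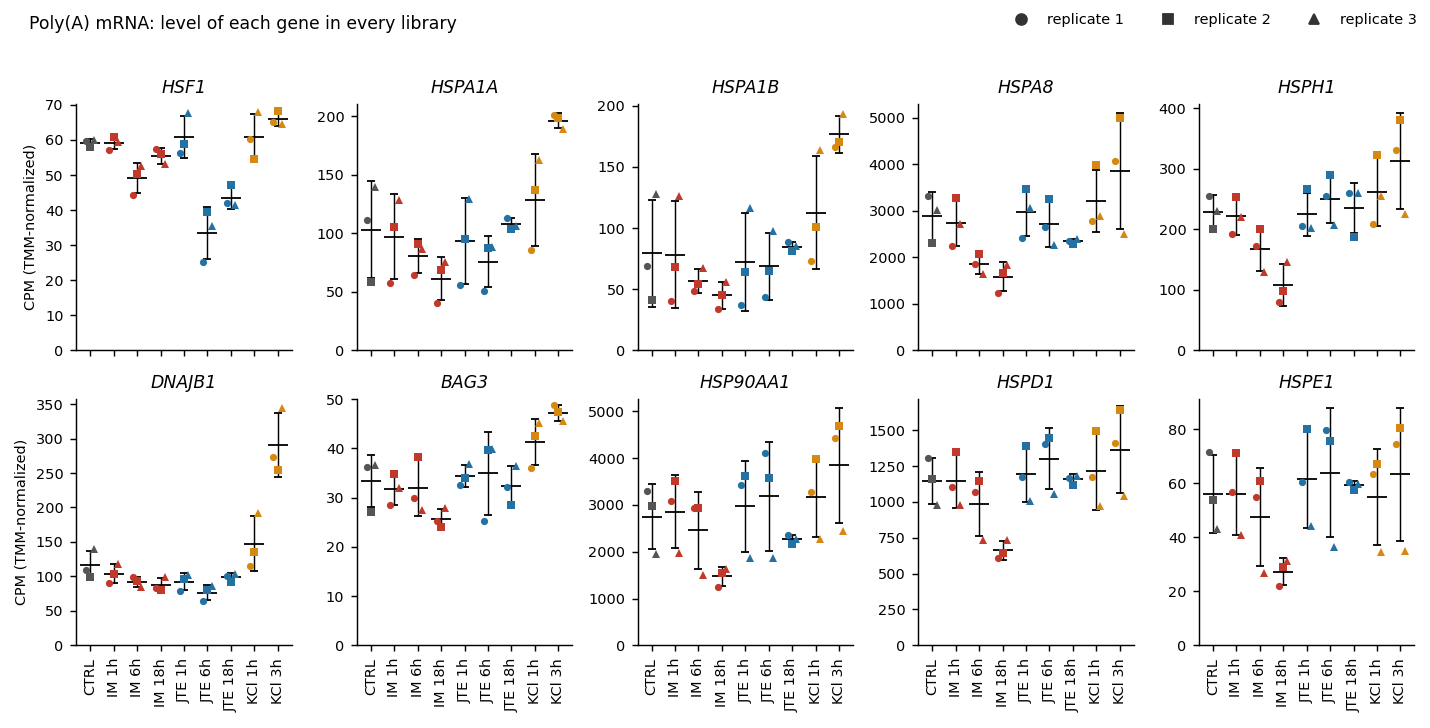
CPM (TMM-normalized) of the 10 genes in each of the 27 mRNA libraries, by treatment group; symbols mark replicates 1, 2 and 3, dashes the group mean and bars the SD. For HSPD1, the 3 IM 18h libraries lie between 607 and 731 CPM, below all CTRL libraries, and for DNAJB1 the 3 KCl 3h libraries lie between 255 and 344 CPM, above all CTRL libraries.

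Each treatment was compared with the CTRL group of its fraction to learn when, and in which direction, heat shock transcripts responded. A gene was called when edgeR's quasi-likelihood test gave a Benjamini-Hochberg adjusted p under 0.05 over all genes tested and the log2 fold change passed 0.6 in either direction. After imatinib, chaperone transcripts were called lower, 1 at 6 h and 5 at 18 h. None of the 10 genes was called in IM 1h mRNA (0.0166% of all 18095 genes were called), HSPA8 was called lower in IM 6h (4.12% of all genes were called lower), and HSPA8, HSPH1, HSP90AA1, HSPD1 and HSPE1 in IM 18h (13.2%). The median log2 fold change of the 10 genes was -0.03, -0.30 and -0.81 at these times, while that of all genes was 0.00064, 0.04 and 0.04. In nuclear RNA no member was called in IM 1h (0.0456% of 21929 genes) and 7 were called lower in IM 18h (15.4%), with a median of -1.04 against 0.0 for all genes. At an unadjusted p under 0.05, 0 members passed in IM 1h mRNA and 1 in IM 1h nuclear RNA, and DESeq2 called 0 in both.

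After JTE-607 the chaperones showed no shared shift. No member was called in JTE 1h mRNA (0.851% of all genes were called) or JTE 18h mRNA (5.39%), and 2 members, HSF1 and DNAJB1, were called lower in JTE 6h (6.47% called lower). In JTE 1h nuclear RNA no member was called (8.52%). The median log2 fold changes of the 10 genes lay between -0.10 and 0.04 in these 4 comparisons. With edgeR at an unadjusted p under 0.05, 0 members passed in JTE 1h mRNA, 1 in JTE 18h mRNA and 1 in JTE 1h nuclear RNA, and DESeq2 called 0 in all 3.

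After KCl, DNAJB1 was the single member called. No member was called in KCl 1h mRNA (5.45% of all genes were called) or in KCl 1h nuclear RNA (23.8%), with 1 member in each at an unadjusted p under 0.05 and 0 called by DESeq2. In KCl 3h mRNA 1 member, DNAJB1, was called higher (4.55% called higher) and 0 were called lower (7.33% called lower). In KCl 3h all 10 log2 fold changes were above 0, with a median of 0.47 against 0.02 for all genes. For 5 members every KCl 3h library lay above every CTRL library, which was so for 14.5% of all genes.

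**Figure D2:**
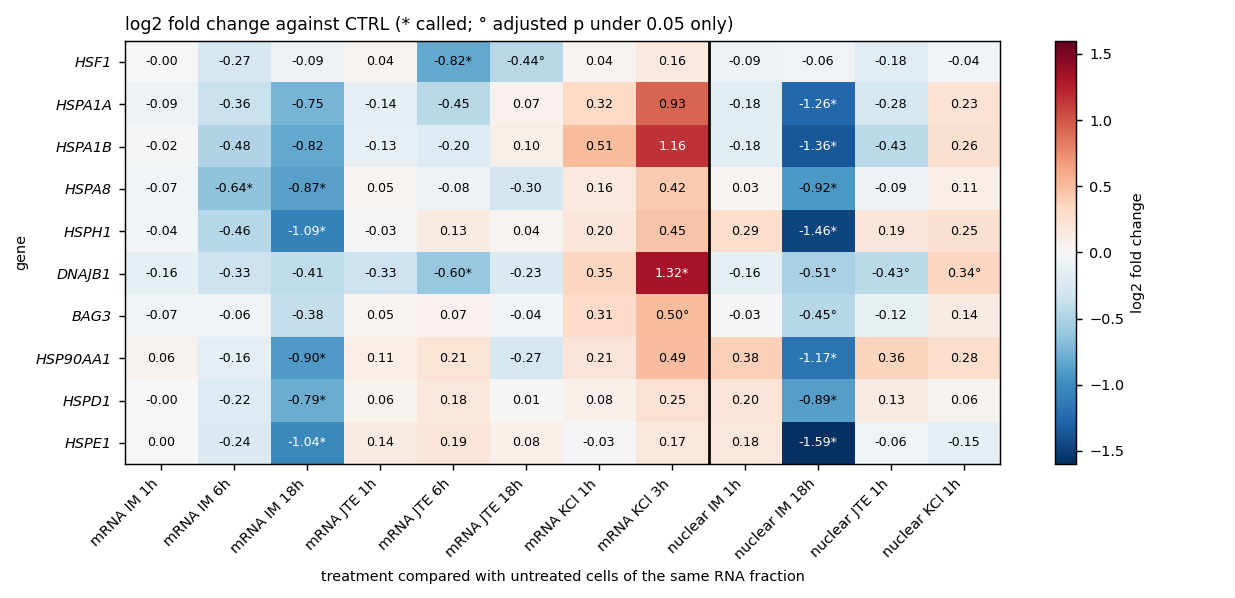
Log2 fold change against CTRL of each of the 10 genes (rows) in the 8 mRNA and 4 nuclear RNA comparisons (columns); an asterisk marks a call and a degree sign an adjusted p under 0.05 without passing 0.6. The columns of IM 18h hold the 5 calls in mRNA and the 7 in nuclear RNA, all lower, and DNAJB1 in KCl 3h holds the single call higher.

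HSF1 (ENSG00000185122, 8:144291591-144314722) had the smallest change of the members in IM 18h and KCl 3h, and the largest in JTE 6h. Its mRNA stood at 59.6, 57.9 and 60.1 CPM in the CTRL libraries and at 25.2, 39.5 and 35.6 CPM in JTE 6h. All JTE 6h libraries were lower than all CTRL libraries, and HSF1 was called lower (log2 fold change -0.82 ± 0.12 SE, adjusted p = 2.7e-05 by edgeR), a call that held without any 1 library. In JTE 18h the values were 42.0, 47.1 and 41.4 CPM, again below every CTRL library, and the log2 fold change of -0.44 ± 0.12 passed the adjusted p (0.021) but not the fold limit. In JTE 1h, HSF1 was at 56.3, 58.7 and 67.7 CPM and overlapped CTRL. The direct comparison of JTE 6h with JTE 1h also called HSF1 lower (-0.86 ± 0.12, adjusted p = 2.9e-05; 4.13% of all genes were called lower), and no other member was called there. From JTE 6h to JTE 18h it stood 0.38 ± 0.12 higher (adjusted p = 0.027), under the fold limit, and no member was called in that comparison (13.4% of all genes).

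With imatinib, HSF1 mRNA was at 44.3, 50.2 and 52.6 CPM in IM 6h and at 57.5, 56.1 and 53.0 CPM in IM 18h. At both times every library lay below every CTRL library, but HSF1 was not called. The log2 fold change was -0.27 (95% interval -0.52 to -0.02, adjusted p = 0.13) at 6 h and -0.09 (95% interval -0.34 to 0.16) at 18 h. In IM 1h, HSF1 overlapped CTRL. In nuclear RNA, HSF1 was at 75.0, 85.6 and 86.3 CPM in CTRL and at 74.0, 78.7 and 83.7 CPM in IM 18h, which overlapped (-0.06, adjusted p = 0.66). No HSF1 comparison was called in nuclear RNA, where its group means ran from 72.8 CPM in JTE 1h to 82.3 CPM in CTRL. HSF1 was thus not called in the comparisons in which 5 and 7 of its fellow members were.

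HSPA1A (ENSG00000204389, 6:31815464-31817946) and HSPA1B (ENSG00000204388, 6:31827735-31830255) encode the same stress-inducible HSP70 protein from neighbouring genes. They were the most variable members between untreated replicates in mRNA. HSPA1A stood at 111, 58.0 and 140 CPM in the mRNA CTRL libraries, and HSPA1B at 68.7, 41.5 and 128 CPM, so replicate 2 was the lowest and replicate 3 the highest for both. In KCl 3h, HSPA1A was at 201, 198 and 189 CPM. HSPA1B was at 166, 170 and 194 CPM in the same libraries. All 3 libraries lay above CTRL for both genes, yet neither was called: the log2 fold change was 0.93 ± 0.34 (adjusted p = 0.071) for HSPA1A and 1.16 ± 0.44 (adjusted p = 0.084) for HSPA1B. Without CTRL replicate 3 both passed (1.20, adjusted p = 0.043, and 1.66, adjusted p = 0.023). With all libraries kept, both also passed in edgeR with the replicate number as a block (0.95, adjusted p = 0.021, and 1.26, adjusted p = 0.0032). The mRNA numbers may be exchanged, however. Both passed without the low-count filter too, where the estimated spread was smaller. HSPA1A also passed in DESeq2 (0.93, adjusted p = 0.029). Summing the counts of both genes gave 1.03 with an adjusted p of 0.074.

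With imatinib the pair stood lower, and was called in nuclear RNA but not in mRNA in the main fit. The difference between the fractions was itself not called for either gene (below). In IM 18h mRNA, HSPA1A was at 40.2, 68.3 and 75.3 CPM and HSPA1B at 33.4, 44.9 and 56.1 CPM, which overlapped CTRL through its low replicate 2. The log2 fold changes were -0.75 ± 0.34 (adjusted p = 0.081) and -0.82 ± 0.44 (adjusted p = 0.14). Without CTRL replicate 2 they were -1.06 (adjusted p = 0.018) and -1.15 (adjusted p = 0.049). DESeq2 called HSPA1A as well (-0.77, adjusted p = 0.043). With the replicate number as a block, edgeR called both (-0.79, adjusted p = 0.026, and -0.77, adjusted p = 0.032), though the mRNA numbers may be exchanged. In nuclear RNA the groups did not overlap. HSPA1A fell from 101, 148 and 162 CPM in CTRL to 39.9, 69.4 and 62.2 CPM in IM 18h (-1.26 ± 0.31, adjusted p = 0.0055). HSPA1B fell from 85.6, 116 and 121 CPM to 30.5, 48.0 and 47.0 CPM (-1.36 ± 0.23, adjusted p = 0.00024).

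HSPA8 (ENSG00000109971, 11:123057489-123063230) encodes HSC70, the HSP70 of unstressed cells. It was the only member called at 6 h of imatinib. Its mRNA was at 3321, 2301 and 3019 CPM in CTRL, at 1848, 2069 and 1637 CPM in IM 6h and at 1228, 1669 and 1839 CPM in IM 18h. Both imatinib groups lay below every CTRL library, with -0.64 ± 0.21 (adjusted p = 0.045) at 6 h and -0.87 ± 0.21 (adjusted p = 0.0024) at 18 h. The 6 h call was lost without CTRL replicate 1 (-0.52), CTRL replicate 3 (-0.64) or IM 6h replicate 1 (-0.66), 2 (-0.76) or 3 (-0.58), with adjusted p-values of 0.18, 0.11, 0.096, 0.053 and 0.16. The 18 h call held without any 1 library. In nuclear RNA, HSPA8 was at 2176, 2468 and 2545 CPM in CTRL and fell to 1165, 1437 and 1195 CPM in IM 18h (-0.92 ± 0.16, adjusted p = 0.00021). In KCl 3h, HSPA8 mRNA spread from 2504 to 4984 CPM and was not called (0.42 ± 0.21, adjusted p = 0.22), but without KCl 3h replicate 3, the lowest, it was (0.65, adjusted p = 0.037).

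DNAJB1 (ENSG00000132002, 19:14514770-14529770), the J-domain partner of inducible HSP70, was the member with the clearest rise in KCl. Its mRNA stood at 109, 99.0 and 140 CPM in CTRL, 115, 135 and 192 CPM in KCl 1h and 274, 255 and 344 CPM in KCl 3h. The KCl 3h libraries were above every other mRNA library for this gene, and the rise was 2.50-fold (log2 1.32 ± 0.17, adjusted p = 4.1e-06), called without any 1 library and in every alternative. In KCl 1h mRNA the log2 fold change was 0.35 ± 0.17 (adjusted p = 0.32), and KCl 3h against KCl 1h was itself called (0.98 ± 0.17, adjusted p = 0.0006; 1.37% of all genes were called higher). In nuclear RNA, DNAJB1 was at 120, 135 and 137 CPM in CTRL and 148, 155 and 195 CPM in KCl 1h, with no overlap, and passed the adjusted p but not the fold limit (0.34 ± 0.13, adjusted p = 0.047).

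DNAJB1 was lower in JTE 6h than in CTRL. It was at 64.3, 79.9 and 85.4 CPM, below every CTRL library. It was called lower at the edge of the fold limit (-0.60 ± 0.17, adjusted p = 0.012), and the call was lost without CTRL replicate 3 (-0.48, adjusted p = 0.065) or JTE 6h replicate 1 (-0.49, adjusted p = 0.078). In JTE 1h nuclear RNA it was at 85.1, 101 and 105 CPM, also without overlap (-0.43 ± 0.13, adjusted p = 0.034, under the fold limit). KCl and JTE-607 at 1 h were compared directly. DNAJB1 was higher in KCl in mRNA (0.67 ± 0.17, adjusted p = 0.013; 2.56% of all genes called higher) and in nuclear RNA (0.77 ± 0.13, adjusted p = 0.00012; 10.7%). The mRNA call was lost without JTE 1h replicate 1, without KCl 1h replicate 3 and in a fit of these groups alone. HSPA1B was the other member called higher in KCl in nuclear RNA (0.69 ± 0.23, adjusted p = 0.050, under 0.05 before rounding), a call that was lost in 5 of 6 fits with a library left out.

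HSPH1 (ENSG00000120694, 13:31134974-31162388), the HSP110 exchange factor, had the largest change of the members in IM 18h mRNA. It stood at 256, 200 and 230 CPM in CTRL and at 78.9, 97.3 and 147 CPM in IM 18h. There was no overlap, and HSPH1 fell by 1.09 ± 0.23 on the log2 scale (adjusted p = 0.00051). In IM 6h it was between both, at 172, 200 and 129 CPM (-0.46 ± 0.22, adjusted p = 0.18). In nuclear RNA it fell from 175, 142 and 131 CPM to 50.7, 63.8 and 48.1 CPM (-1.46 ± 0.14, adjusted p = 7.6e-08). In KCl 3h the mRNA was at 332, 380 and 225 CPM, overlapped CTRL and was not called (0.45 ± 0.22, adjusted p = 0.20).

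BAG3 (ENSG00000151929, 10:119651370-119677819), a stress-induced cochaperone that links HSP70 to autophagy, changed by smaller steps. Its mRNA was at 36.3, 27.2 and 36.6 CPM in CTRL and at 48.8, 47.3 and 45.6 CPM in KCl 3h, with no overlap (0.50 ± 0.16, adjusted p = 0.029, under the fold limit). In nuclear RNA it stood at 44.0, 44.6 and 43.2 CPM in CTRL and at 30.0, 32.5 and 33.9 CPM in IM 18h (-0.45 ± 0.10, adjusted p = 0.00095). DNAJB1 resembled it there, at 79.0, 94.4 and 101 CPM in IM 18h against the CTRL values above (-0.51 ± 0.13, adjusted p = 0.0023). Both passed the adjusted p in nuclear RNA but not the limit of 0.6, and in IM 18h mRNA neither passed it (-0.38, adjusted p = 0.057, for BAG3 and -0.41, adjusted p = 0.050, not under 0.05 before rounding, for DNAJB1).

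HSP90AA1 (ENSG00000080824, 14:102080738-102139699) encodes the stress-inducible cytosolic HSP90. Its mRNA was at 3289, 2986 and 1960 CPM in CTRL and at 1240, 1535 and 1637 CPM in IM 18h. All IM 18h libraries were lower than CTRL, and HSP90AA1 was called (-0.90 ± 0.33, adjusted p = 0.034). The call rested on the full set of libraries, since it was lost without CTRL replicate 1 (-0.76, adjusted p = 0.12), CTRL replicate 2 (-0.86, 0.080), IM 18h replicate 1 (-0.79, 0.12), replicate 2 (-0.96, 0.066) or replicate 3 (-0.99, 0.052). In nuclear RNA it was at 1970, 1468 and 1185 CPM in CTRL and fell to 793, 772 and 494 CPM in IM 18h (-1.17 ± 0.24, adjusted p = 0.0016). In KCl 3h mRNA it spread from 2439 to 4686 CPM (0.49 ± 0.33, adjusted p = 0.39).

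HSPD1 (ENSG00000144381, 2:197486581-197516737) and HSPE1 (ENSG00000115541, 2:197499994-197503457) encode the mitochondrial chaperonin HSP60 and its lid HSP10, and lie head to head. HSPD1 mRNA was at 1304, 1157 and 979 CPM in CTRL and fell to 607, 646 and 731 CPM in IM 18h (-0.79 ± 0.19, adjusted p = 0.0015). HSPE1 was at 71.4, 53.8 and 42.9 CPM in CTRL and at 21.8, 28.9 and 31.1 CPM in IM 18h (-1.04 ± 0.36, adjusted p = 0.023). Neither gene overlapped CTRL. Leaving out replicate 1 of CTRL (-0.83, adjusted p = 0.10) or of IM 18h (-0.90, adjusted p = 0.097) ended the call of HSPE1, while that of HSPD1 held without any 1 library. In nuclear RNA, HSPD1 fell from 873, 725 and 701 CPM to 434, 449 and 359 CPM (-0.89 ± 0.13, adjusted p = 1.3e-05). HSPE1 fell there from 60.2, 51.2 and 57.8 CPM to 16.5, 21.2 and 18.6 CPM, 0.333-fold of CTRL (-1.59 ± 0.18, adjusted p = 1.1e-06), which was the largest change of the 10 genes in any comparison with CTRL. Neither gene was called with JTE-607 or KCl in either fraction.

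**Figure D3:**
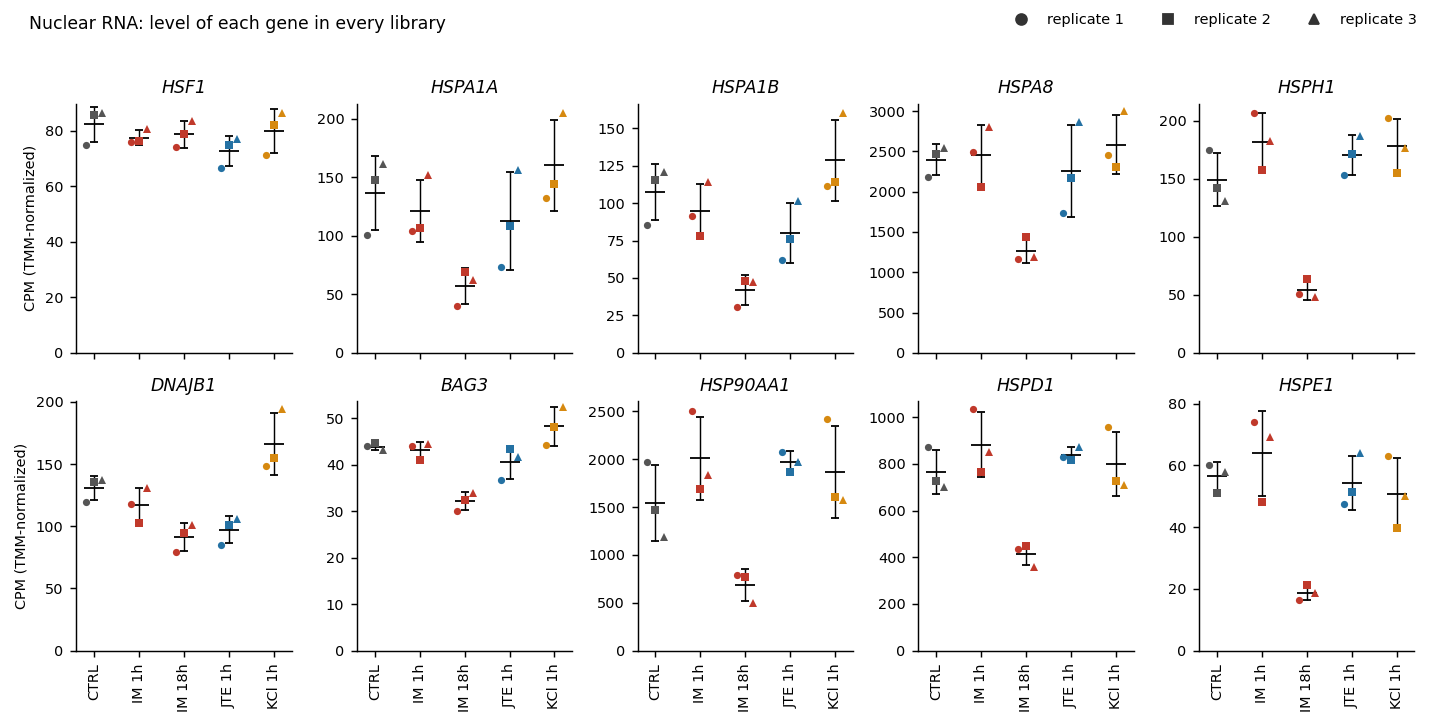
CPM (TMM-normalized) of the 10 genes in each of the 15 nuclear RNA libraries, by treatment group; symbols mark replicates 1, 2 and 3, dashes the group mean and bars the SD. For 9 of the 10 genes, all but HSF1, the 3 IM 18h libraries lie below the 3 CTRL libraries, as they did for 27.1% of all genes tested.

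In IM 18h nuclear RNA, 9 of the 10 genes thus lay below CTRL in every library (27.1% of all genes did), and the 7 calls held without any 1 library. To ask whether imatinib acted differently on the nuclear and the poly(A) level, the difference of the 2 responses was tested as an interaction in 12 libraries. No member was called for IM 18h (0.0901% of 19967 genes were), with differences, nuclear minus mRNA, from -0.50 (HSPE1, 95% interval -1.0 to 0.0065, adjusted p = 1.0) to 0.08 (HSF1, -0.21 to 0.37). None was called for the 1 h responses to IM (0.0% of 19420 genes), JTE (0.0605% of 19831) or KCl (0.668% of 21095) either. By edgeR 0 members passed an unadjusted p under 0.05 in any of the 4 interactions, and DESeq2 called 0. The intervals for HSPA1A and HSPA1B were the widest, for IM 18h -1.55 to 0.63 and -1.64 to 0.67, so that a difference of the size of the responses themselves was not detectable for this pair.

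Direct comparisons between treatments and times gave few member calls. From IM 6h to IM 18h no member was called (4.41% of all genes were). Of the 10 values 9 were below 0, with a median of -0.37 against 0.0016 for all genes. By edgeR 4 members had an unadjusted p under 0.05, a count for which no share of all genes is given. The nearest to a call were HSPD1 (-0.57 ± 0.19, adjusted p = 0.056) and HSPH1 (-0.63 ± 0.22, adjusted p = 0.083). Both were called without IM 6h replicate 3, and HSPH1 also without IM 18h replicate 3, while DESeq2 called 0 members. At 18 h, 3 members were lower in IM than in JTE (13.6% of all genes were called lower): HSPH1 (-1.13 ± 0.23, adjusted p = 0.00035), HSPE1 (-1.12 ± 0.36, adjusted p = 0.015) and HSPD1 (-0.81 ± 0.19, adjusted p = 0.0013). HSPA8 passed the adjusted p but not the fold limit (-0.57 ± 0.21, adjusted p = 0.035), and HSF1 stood higher in IM than in JTE, also under the limit (0.35 ± 0.12, adjusted p = 0.021).

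Ordered by mean level over the 9 mRNA groups, KCl 3h was the highest group for 9 of the 10 genes and IM 18h the lowest for 8 of them. The exceptions were HSPE1, which was highest in JTE 6h, and HSF1 and DNAJB1, which were lowest in JTE 6h. Most neighbours in these orders did not separate: in mRNA, 10 of 80 neighbouring pairs of groups had no overlap between their libraries, and in nuclear RNA 9 of 40. The share of such pairs over all genes is not given, so these counts do not set the members apart. In nuclear RNA, IM 18h was the lowest group for 9 genes. For 8 of these it did not overlap the next group, and for DNAJB1 it overlapped JTE 1h. How many of all genes had KCl 3h highest or IM 18h lowest is not given either, so the orders describe the 10 genes alone.

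Replicates differed in a way that the treatments did not explain. In mRNA, replicate 3 was the lowest library of its group for HSP90AA1, HSPD1 and HSPE1 in 7 of 9 groups (10.9% of all tested genes had as many) and the highest for HSPA1B and DNAJB1 in 8 of 9 groups (5.59%). The JTE 18h libraries lacked this spread, with HSP90AA1 at 2361, 2170 and 2276 CPM. In IM 18h, replicate 3 was instead the highest library for HSP90AA1 (1240, 1535 and 1637 CPM), HSPD1 (607, 646 and 731 CPM) and HSPE1 (21.8, 28.9 and 31.1 CPM). For these genes the IM 18h calls in mRNA thus compare groups whose replicates were ordered differently. In nuclear RNA, replicate 3 was the highest library for HSF1 and DNAJB1 in 5 of 5 groups (4.98% of all tested genes). What these replicates share was not tested.

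Beyond the 10 genes, 75 further chaperone and proteostasis genes in 10 lists were followed, of which the filter kept 70 in mRNA and 71 in nuclear RNA. The lists were chosen with earlier results of these data known, so their counts beside the shares of all genes are descriptive. In IM 18h mRNA, 37 were called lower and 2 higher, while of all genes 13.2% were called lower and 17.2% higher. Their median log2 fold change was -0.65 against 0.04 for all genes. In IM 18h nuclear RNA, 39 were called lower and 4 higher (15.4% and 17.2% of all genes), with a median of -0.63 against 0.0. In IM 18h against JTE 18h, 30 were called lower (13.6% of all genes) and 3 higher (16.7%), the latter being DNAJB2, DNAJA4 and HTRA2. In the mitochondrial list 7 of 8 genes were called lower in both fractions, among them HSPA9, the mitochondrial HSP70, and GRPEL1, its exchange factor. In the endoplasmic reticulum list 7 of 12 were lower in each fraction, with HSPA5 (BiP) and HSP90B1 (GRP94) among them. Of the 8 CCT chaperonin subunits, which fold actin and tubulin, 5 were lower in each fraction. In the HSP90 list, 5 of 10 were lower in mRNA and 7 in nuclear RNA, STIP1, FKBP4 and AHSA1 in both. Of the other heat shock factors and their binding protein, none of 3 tested in mRNA was called, and HSF4 was called higher in nuclear RNA. None of the 4 ubiquitin and clearance genes was called in either fraction.

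The genes with the largest changes in the lists were of low abundance. DNAJB2, a J-domain gene, rose in IM 18h from 2.04 ± 0.48 to 13.2 ± 2.7 CPM in mRNA (adjusted p = 1.3e-06) and from 2.34 ± 0.43 to 21.5 ± 2.9 CPM in nuclear RNA (log2 fold change 3.20 ± 0.23, adjusted p = 2.5e-09). CRYAB, a small heat shock protein, rose with it (1.68 ± 0.38 in mRNA, adjusted p = 0.0010, and 1.45 ± 0.23 in nuclear RNA, adjusted p = 3.8e-05). HSPA6, an HSP70 gene that is nearly silent without stress, was lower in IM 18h mRNA, with 12 to 37 counts per library in CTRL and 1 to 4 in IM 18h. DNAJB5 was lower too, with 46 to 67 counts per library in CTRL and 2 to 7 in IM 18h. In nuclear RNA HSPA6 had 36 to 66 counts in CTRL and 1 to 9 in IM 18h, and DNAJB5 54 to 134 and 6 to 14. These 4 genes were called in the same direction in both fractions. In IM 6h mRNA, 3 of 70 listed genes were called higher (5.82% of all genes) and 4 lower (4.12%). Those higher were DNAJB2 and CRYAB (1.67 ± 0.34 and 1.53 ± 0.38) with DNAJB4, and the largest of those lower were GRPEL1 (-0.99 ± 0.14, adjusted p = 3.8e-05) and SDF2L1 (-0.79 ± 0.16, adjusted p = 0.0015).

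With JTE-607, HSPA6 was the listed gene that rose at both later times. It rose from 1.41 ± 0.71 CPM in CTRL to 5.09 ± 2.5 CPM in JTE 6h (1.84 ± 0.51, adjusted p = 0.013) and 4.34 ± 1.4 CPM in JTE 18h (1.62 ± 0.51, adjusted p = 0.049). Of the 70 listed genes, 1 was called higher in JTE 6h (6.73% of all genes) and 2 in JTE 18h (3.29%). In JTE 6h mRNA, 3 listed genes were lower (6.47% of all genes), HTRA2, a mitochondrial protease (-0.98 ± 0.17, adjusted p = 0.00015), DNAJB5 (-1.56 ± 0.38, adjusted p = 0.0045) and SDF2L1. In JTE 18h, DNAJB5 stood higher than CTRL (1.30 ± 0.33, adjusted p = 0.014), and LONP1, the mitochondrial Lon protease, was the single listed gene lower (-1.20 ± 0.28, adjusted p = 0.0077; 2.09% of all genes were called lower). In JTE 1h nuclear RNA 1 listed gene was called, DNAJA4 (0.65 ± 0.20, adjusted p = 0.042; 7.0% of all genes were called higher).

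After KCl few listed genes were called. In KCl 3h mRNA 3 of 70 were called higher and 1 lower, while of all genes 4.55% were called higher and 7.33% lower, so these counts do not set the lists apart. Those higher were DNAJA1, HSPA1L, a constitutive relative of HSPA1A (0.95 ± 0.29, adjusted p = 0.027), and HSPA2, and the one lower was BAG5 (-0.85 ± 0.14, adjusted p = 9.3e-05). HSPA2, an HSP70 gene best known from testis, was close to silent in CTRL, with 1 count over the 3 mRNA libraries and 0 over the 3 nuclear libraries, where a count of 0 allows up to 3. It had 17 to 41 counts per library in KCl 3h mRNA and 11 to 34 in KCl 1h nuclear RNA, and was called higher in both. HSF5, a relative of HSF1, had 2 counts over the 3 nuclear CTRL libraries and 16 to 45 per library in KCl 1h nuclear RNA, where it was called higher, as were 4 of 71 listed genes and 15.3% of all genes. With so few counts in CTRL, a fold is not given for these genes.

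**Figure D4:**
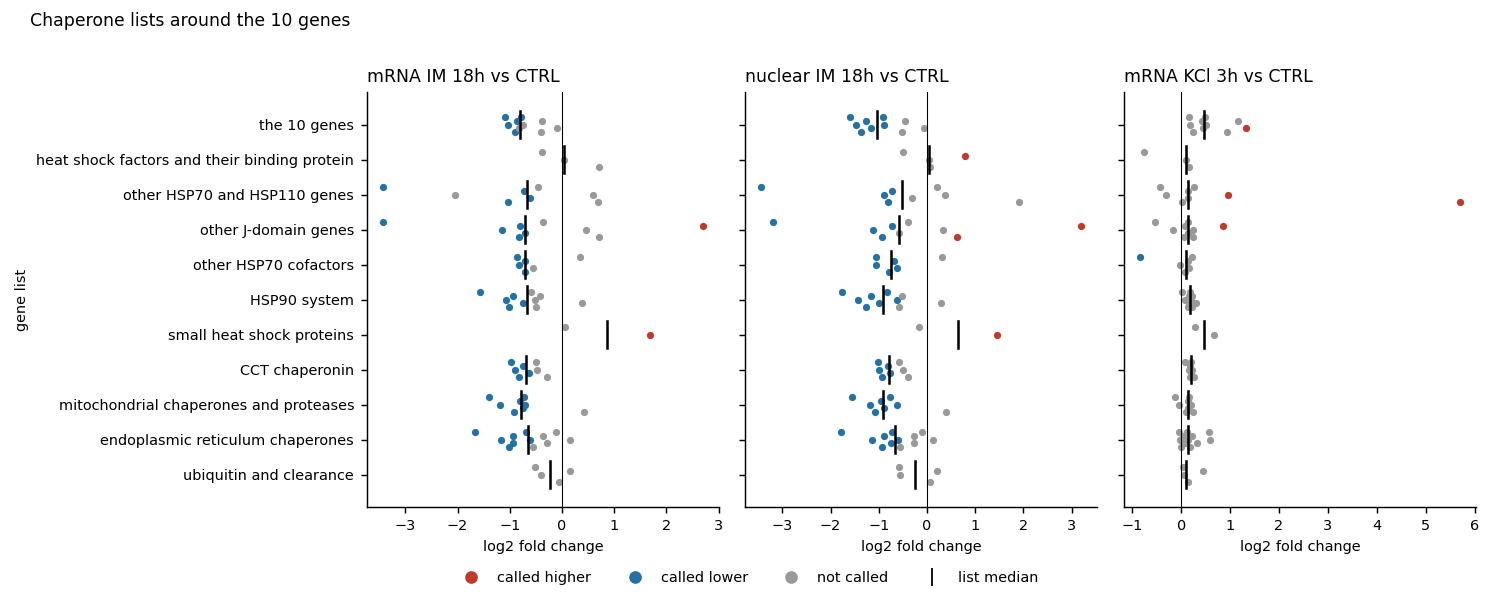
Log2 fold change against CTRL of each tested gene in the 10 genes and 10 further chaperone lists, in IM 18h mRNA, IM 18h nuclear RNA and KCl 3h mRNA; points are genes, black bars list medians. In IM 18h most lists have medians below 0 (-0.81 and -1.04 for the 10 genes), and in KCl 3h the point furthest right is HSPA2, whose fitted value rests on 1 count in CTRL.

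Across the 27 mRNA libraries, which share treatments, replicates and library preparation, the pattern of each member was compared with those of all genes of at least 10 CPM by Pearson's r of log2(CPM + 0.5). HSPA1A and HSPA1B were each other's nearest gene (r = 0.957), followed by NEFH (0.919) for HSPA1A and NXF1 (0.891) for HSPA1B. The nearest genes to HSP90AA1 and HSPA8 were their own pseudogenes, HSP90AA2P (0.992) and HSPA8P1 (0.980), where near-identical sequence leaves the origin of reads uncertain. HSPD1 was nearest to TCP1 (0.989), a CCT subunit, and XRCC5 (0.986), and its nearest member was HSPE1 (0.942). HSPH1 was nearest to INTS10 (0.951), HSPE1 to IRF3 (0.957), BAG3 to NXF1 (0.856), and DNAJB1 to ZNF280A (0.921) and HEXIM1 (0.919). HSF1 was nearest to LYL1 (0.908) and WIZ (0.904). Its nearest member was DNAJB1 (0.574), which ranked 581 among all genes compared with it. These correlations describe the 27 libraries and were not tested.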

How the data were processed

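The deposited files hold raw counts of read pairs per gene for 27 mRNA and 15 nuclear RNA libraries. The authors removed duplicate reads, aligned to hg38 (GRCh38.p14) with STAR, keeping uniquely mapped reads and allowing no long introns, and counted exons with featureCounts. The libraries keep strand, but no strand setting is stated for the counting, so antisense reads count for a gene. Duplicate removal without molecular identifiers can lower abundant transcripts. No count column was without a sample (0).

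Genes were tested with edgeR 4.0.16 (R 4.3.3; robust quasi-likelihood test, TMM, filterByExpr), fitting each fraction's libraries together, and interactions in the 12 libraries concerned, with DESeq2 1.42.0 as an alternative. Others were RLE scaling, library totals, no low-count filter, no fold limit, fits of only the groups compared, the replicate number as a block, summed HSPA1A and HSPA1B counts, and leaving out each library. The script was tested on simulated counts. Within each group the libraries differed beyond sampling noise (chi-square per gene 2.37 to 62.5), least for JTE 18h replicates 1 and 3. This cannot show that they came from separate cultures, and each library was taken as 1 replicate as labelled.

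The members and lists were chosen with earlier results of these data known. All 10 members are given. From the other lists, the 2 largest rises and falls called in each comparison with CTRL, at a mean of at least 1 CPM in the higher group, are given with values; other listed genes were named after their values were seen. Patterns were compared for genes with a mean of at least 10 CPM. Repeats 1 to 3 are numbered in both fractions. Nuclear numbers paired with CTRL (correlations of deviations 0.235 to 0.891), as every pair was over 0.1, and mRNA numbers did not (-0.368 to 0.877). The SEs and adjusted p-values above are from fits without the replicate number, in nuclear RNA too. Counts of calls with it as a block are given below. Numbers follow the column names of the deposited tables; the study's own read totals give mRNA CTRL replicates 1 and 2 the opposite numbers.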

Additional observations from a re-analysis of the deposited data

Results flagged for a closer look

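Responses of 2 members differed between times of the same treatment by the test of that difference. HSF1 mRNA was lower in JTE 6h than in JTE 1h by a log2 fold change of -0.86 (edgeR, adjusted p = 2.9e-05), with 25.2 to 39.5 CPM in the 3 JTE 6h libraries and 56.3 to 67.7 CPM in the 3 JTE 1h libraries. DNAJB1 mRNA was higher in KCl 3h than in KCl 1h by 0.98 (edgeR, adjusted p = 0.0006), with 255 to 344 CPM in the 3 KCl 3h libraries and 115 to 192 CPM in the 3 KCl 1h libraries.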

How the results depend on the processing

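With 3 libraries a group, the spread of HSPA1A, HSPA1B and HSP90AA1 between untreated replicates limits what can be called. The direction of a member was followed only where its value against CTRL was at least 1 SE from 0 in the main fit. This held for 61 values, so those most able to reverse were left out beforehand. Under the alternatives with all libraries these gave 439 values, of which 421 kept their direction and side of the limits, and none of the 439 reversed. The values with no fold limit are those of the main fit and could not reverse. With a library left out, 1 of 366 reversed: HSPA1B in IM 6h mRNA, which ran from -0.81 to 0.0042, the latter without CTRL replicate 3.

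The number of members called changed as follows. With no fold limit it was 1 in JTE 18h mRNA, JTE 1h nuclear RNA, KCl 1h nuclear RNA and JTE 18h against JTE 6h (0 with it), 2 in KCl 3h mRNA (1) 5 in IM 18h against JTE 18h (3) and 9 in IM 18h nuclear RNA (7). With library totals only it was 0 in IM 6h mRNA (1), 1 in nuclear KCl 1h against JTE 1h (2) and 5 in IM 18h against JTE 18h; this scaling moved the median of all genes by over 0.1 in 2 of 23 comparisons, at most by 0.14. RLE scaling gave 1 in nuclear KCl 1h against JTE 1h. DESeq2 gave 2 in KCl 3h mRNA, 6 in IM 18h mRNA (5) and 4 in IM 18h against JTE 18h. Without the low-count filter it was 7 in IM 18h mRNA, 3 in KCl 3h mRNA, 4 in IM 18h against IM 6h (0), 2 in KCl 3h against KCl 1h (1), 2 in mRNA KCl 1h against JTE 1h (1) and 7 in IM 18h against JTE 18h. In the fit without the filter the SE of HSPA1A in IM 18h mRNA was 0.13, against 0.33 in DESeq2, so its added calls rest on a smaller estimate of the spread. Fits of only the 2 groups gave 0 in mRNA KCl 1h against JTE 1h and 7 in IM 18h against JTE 18h. For these settings, and for the block and the left-out libraries below, no share of all genes called is given. The cause of these changes was not tested.

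With the replicate block, 1 member was called in JTE 6h mRNA (2 without it), 3 in KCl 3h mRNA (1) and 6 in IM 18h against JTE 18h (3), and 7 in IM 18h mRNA (5). In nuclear RNA the block changed no member call. In mRNA the numbers were not taken as pairs. In 8 of 8 comparisons with CTRL, treated replicate 1 correlated best with CTRL replicate 2 and treated replicate 2 with CTRL replicate 1. In 6 of 8, replicate 3 correlated best with replicate 3. The exceptions for replicate 3 were IM 18h (r = 0.121 with CTRL replicate 3) and JTE 18h (0.0553). The study's own read totals give CTRL replicates 1 and 2 the opposite numbers. The mRNA counts with the block in comparisons with CTRL thus rest on numbers that may be exchanged, and no exchanged pairing was fitted.

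Leaving out 1 library at a time gave 0 to 1 members called in IM 6h mRNA, 3 to 6 in IM 18h mRNA, 1 to 2 in JTE 6h mRNA, 1 to 3 in KCl 3h mRNA, 0 to 2 in IM 18h against IM 6h, 0 to 1 in mRNA KCl 1h against JTE 1h, 1 to 2 in nuclear KCl 1h against JTE 1h and 2 to 4 in IM 18h against JTE 18h; in the other 15 comparisons the number did not change.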

Other observations

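Outside the 10 genes, DNAJB5, a J-domain gene of low abundance, went down and then up within the JTE-607 series. It had 46 to 67 counts per library in CTRL mRNA, 40 to 46 in JTE 1h, 10 to 24 in JTE 6h and 82 to 167 in JTE 18h, and was called higher in JTE 18h than in JTE 6h (log2 fold change 2.86 ± 0.37 SE, edgeR adjusted p = 1.0e-05). DNAJB9, a J-domain gene of the endoplasmic reticulum, was higher in JTE 6h than in JTE 1h (1.12 ± 0.23, adjusted p = 0.0012) and lower in JTE 18h than in JTE 6h (-0.64 ± 0.22, adjusted p = 0.040). HSPA2 was also called higher in KCl 1h mRNA, where it had 14 to 31 counts per library.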
